A study of Mus musculus with 20 samples.

Results

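The genes described here encode the protein part of the cytoplasmic ribosome. They were taken as the protein-coding genes whose symbols start with Rpl or Rps and a number, together with Rplp0, Rplp1, Rplp2 and Rpsa. The Rps6k kinases, Rps19bp1 and the copies named -ps as pseudogenes were left out. This gave 84 of the 37620 genes in the table, 51 for the large subunit and 33 for the small subunit. Reads were found for 83 of them, and 70 reached a mean of 1 RPKM (reads relative to exon length and library size) in at least 1 group and were tested, 42 of the large and 28 of the small subunit. Rpl41 was not analysed here.

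The ribosome is built from ribosomal RNA and a set of small basic proteins, most of them present once per particle. The mRNAs of these proteins usually begin with a run of C and T bases at the transcription start, which ties their translation to growth signals. Ribosomal protein genes have also left many reverse-transcribed copies across mammalian genomes, so that a short read from such an mRNA may align at more than 1 place.

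Whole dorsal root ganglia (DRG), which hold sensory neurons and their glia, were taken from C57Bl/6 mouse embryos at E18.5, shortly before birth. Each of 10 donor embryos gave 1 library from the L4-L5 ganglia, called lumbar, and 1 from the L6-S1 ganglia, called sacral. Male donors were M1, M3, M5, M7 and M8 and female donors F3, F7, F8, F9 and F10, so that sex and level made 4 groups of 5 libraries. No group carried a treatment or a targeted allele, and all libraries came from the same amplified-cDNA protocol. All 7 DRG neuron markers examined (among them Prph, Isl1 and Pou4f1) had means above 1 RPKM, as had all 6 markers of Schwann cells and satellite glia.

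Between 19606265 and 39678967 reads per library were recovered from the values. The 2 mitochondrial ribosomal RNA genes, mt-Rnr1 and mt-Rnr2, took from 17.8% (sacral F3) to 61.0% (lumbar M5) of them. The ribosomal protein genes together took from 0.0840% to 0.171% of all reads. Because these were bulk samples, fewer cells of a type and less RNA per cell cannot be told apart in any difference given here.

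The first bases of 4 coding sequences show how unequally these genes can be told from their copies. Rpl8 is a member whose start occurs nowhere else in the genome. Rps27 and Rps12 are members whose 50-base coding windows are all also found elsewhere, not necessarily at the same place. Rpl15 is the member that differed most between the sexes. Each line holds the first 50 coding bases, with the start codon in capitals, read from the GENCODE M1 transcripts of the mm9 build.
Rpl8: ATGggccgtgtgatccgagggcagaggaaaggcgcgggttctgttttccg
Rps27: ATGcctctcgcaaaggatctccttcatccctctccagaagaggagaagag
Rps12: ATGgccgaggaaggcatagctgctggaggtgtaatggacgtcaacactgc
Rpl15: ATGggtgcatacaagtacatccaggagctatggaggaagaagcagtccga

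Rpl8 lies on the plus strand of chr15:76734501-76736748. Rps27 lies on the minus strand of chr3:90016593-90017573, Rps12 on the minus strand of chr10:23504990-23507015 and Rpl15 on the minus strand of chr14:19100337-19103905. The start of Rpl8 had 0 other exact matches in the genome, while those of Rps27, Rps12 and Rpl15 had 2, 7 and 5. Over all 50-base windows of the coding sequence, 8.83% were found elsewhere for Rpl8, against 100% for Rps27, Rps12 and Rpl15. Among the 84 members, 68 had over 50% of their coding windows elsewhere in the genome, 28 had all of them, and 3 had none. With windows of 100 bases, 24 members still had all of them elsewhere. Only uniquely aligned reads had been counted, so the levels of such members are uncertain, and which of their bases the counted reads cover was not tested.

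A run of C and T bases at or near the start was looked for in the promoter table of RefSeq (build GRCm38.p6), which held 62 of the 84 members. A run of at least 8 bases C or T on the gene's strand, overlapping the 10 bases on either side of the annotated start, was present in 27 of 62 members (43.5%) and in 13.5% of the promoters of all 27025 genes. The annotated start base itself was C or T in 45.2% of the members and in 29.4% of all. A run that ends before the annotated start also counted, so the count is not one of mRNAs that begin with such a run. The next lines show 5 members with a run, Rps27l among them, whose run lies wholly before the annotated start. Each line holds 15 bases before and 15 bases from the start, with the run in capitals.
Rpl15: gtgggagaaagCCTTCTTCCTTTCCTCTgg
Rps6: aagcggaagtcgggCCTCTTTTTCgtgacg
Rps27: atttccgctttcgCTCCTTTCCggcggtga
Rps27l: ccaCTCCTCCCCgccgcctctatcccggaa
Rps24: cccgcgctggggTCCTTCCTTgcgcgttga

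These windows lie at chr14:18270972-18271001 (minus strand), chr4:86857353-86857382 (minus), chr3:90213634-90213663 (minus), chr9:66946071-66946100 (plus) and chr14:24490663-24490692 (plus) of GRCm38.p6. The runs were 17 bases long in Rpl15, 10 in Rps6 and 9 in each of the other 3.

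The levels of the ribosomal protein genes were far from equal. Rpl4, a core protein of the large subunit, was highest with a mean of 6.33 log2 RPKM over the 20 libraries, followed by Rpl32 with 6.05, Rps15 with 5.69 and Rpl8 with 5.54. Rps13 had a mean of −1.35, Rps27 of −1.19 and Rpl35a of −1.03 log2 RPKM. The median of the 83 members with reads was 2.14 log2 RPKM, 9 members had means above 4 log2 RPKM and 19 were below 1 RPKM. RPKM is a per-length scale, but the length used here was that of all annotated exons of a gene joined together. This was from 1 to 8.91 times the length of the member's transcript (median 1.67), with 1 for Rpl4, Rpl32, Rpl8 and Rps27 and 7.18 for Rpl35a. The order of levels between members is therefore approximate, for this reason and for the unique alignment given above.

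Members with all 50-base coding windows elsewhere had the lowest median level. The 8 members with at most 25% of coding windows elsewhere had a median of 2.67 log2 RPKM (from −5.22 to 6.33). The 15 with over 25% and up to 75% had a median of 2.76 and the 32 with over 75% but not all of them 2.33, while the 28 with all windows elsewhere had a median of 0.54. Across the 83 members Spearman's rho between level and the share of 50-base windows elsewhere was −0.44, and −0.42 with 100-base windows. This is a description across genes, which share libraries and are not independent replicates. The copies themselves were not empty: 139 of the 152 -ps copies whose symbols start with Rpl or Rps and a number had recovered reads. Rpl36-ps2 had a value (mean 2.12 log2 RPKM) from which whole reads could not be recovered. Rpl10a-ps1 reached 7.85 log2 RPKM, above every member, and Rps16-ps2 with 5.81 and Rpl14-ps1 with 5.75 were above most of the members.

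**Figure D1:**
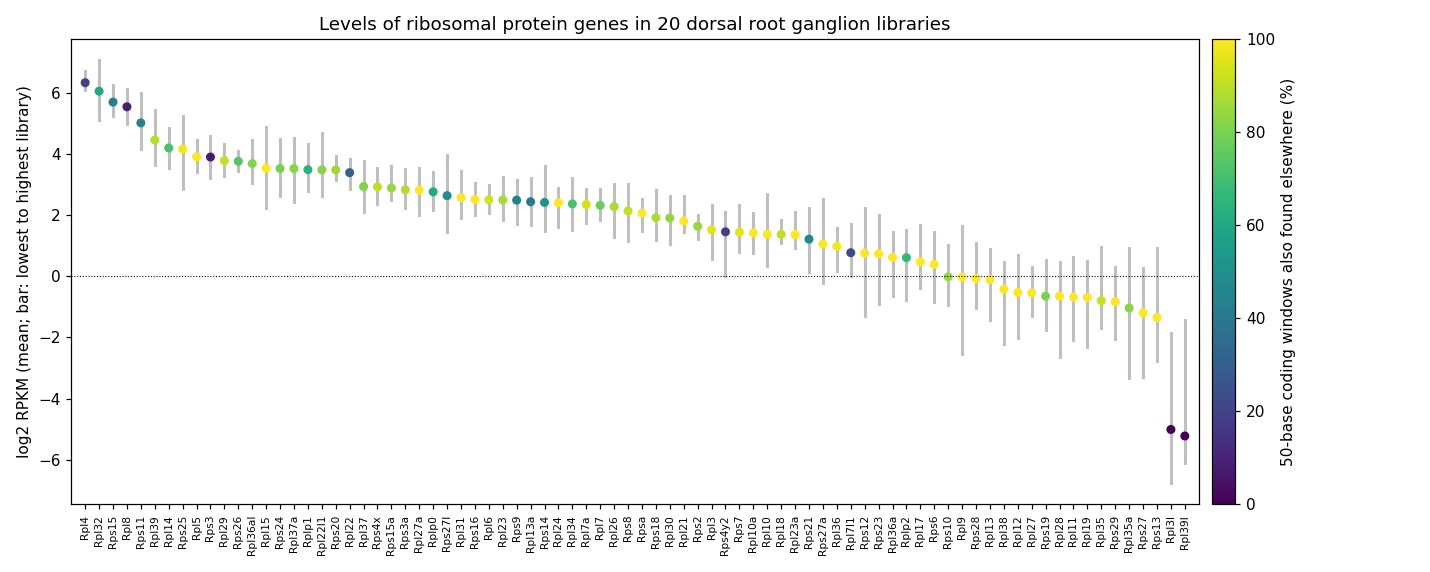
Level of 80 ribosomal protein genes with reads, ordered by mean log2 RPKM over the 20 libraries. Points are means, bars run from the lowest to the highest library, and colour gives the percent of 50-base coding windows found elsewhere in mm9. Rpl4 stands highest at 6.33, and no member with all windows elsewhere is above 3.90.

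Named parts of the ribosome also differed in level. Rplp0, Rplp1 and Rplp2 form the stalk that recruits elongation factors, and their means were 2.76, 3.48 and 0.61 log2 RPKM. Rpsa, a small-subunit protein that is also known as the laminin receptor, had 2.06. Rpl5 and Rpl11 bind the 5S ribosomal RNA and, when free, the p53 regulator Mdm2. Rpl5 had a mean of 3.90 log2 RPKM, and Rpl11, with 18 to 96 reads per library, of −0.68. Rps6, the ribosomal substrate of the S6 kinases, had 0.39, and Rps27a, which is made as a fusion with ubiquitin, had 1.05. Rpl13a and Rps18, both in use as reference genes for PCR, had 2.44 and 1.92.

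Several members have paralogs, whose levels were set beside those of the parent genes. Rpl36al had a mean of 3.68 log2 RPKM against 0.62 for Rpl36a, and the lowest library of Rpl36al (3.05) stood above the highest of Rpl36a (1.45). Rps27l, a p53 target, had 2.64 against −1.19 for Rps27, whose libraries held only 1 to 14 reads, and these ranges did not overlap either (lowest 1.44, highest 0.25). Rpl22l1 had 3.48 and Rpl22 3.39, with ranges from 2.62 to 4.68 and from 2.87 to 3.82 that overlapped. The exon length used for Rpl22 was 6.14 times that of its transcript, against 1 for Rpl22l1. Rpl7l1 was lower than Rpl7, with 0.77 against 2.32, and its highest library (1.72) was below the lowest of Rpl7 (1.83). The striated-muscle form Rpl3l, with at most 11 reads in a library, and the testis-enriched form Rpl39l, with at most 5, were near the limit of detection, and Rpl10l had no value in any library. Rpl3, Rpl10 and Rpl39 had means of 1.52, 1.37 and 4.45. All coding windows of Rpl36a and Rps27 occur elsewhere in the genome, so these comparisons between genes carry the uncertainty given above.

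The spread between libraries was wide for some members and narrow for others. Over the 70 members tested, the SD within groups had a median of 0.40 log2 units and ran from 0.15 to 1.18. It was 0.37 for all 14529 genes tested and 0.32 for the 6556 genes with means inside the middle 50% of the members' range. The 5 most variable members were Rpl9 with an SD of 1.18, Rps12 with 1.16, Rps27a with 0.82, Rpl17 with 0.69 and Rps27l with 0.69. The least variable included Rpl4 with 0.15, Rps20 with 0.17, Rpl18 with 0.18 and Rps26 with 0.18. Rpl9, a large-subunit protein, ranged from −2.54 (lumbar M8) to 1.64 (sacral F8), on 18 to 303 reads. Rpl4 ranged only from 6.09 to 6.70, on 1590 to 6138 reads.

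The question posed by the paired design was whether lumbar and sacral ganglia differ, and 1 ribosomal protein gene of 70 passed that test. This was Rpl29, which was lower in sacral ganglia (limma, Benjamini-Hochberg adjusted p at most 0.05). Over all 14529 genes 6.73% passed, 2.7% higher and 4.03% lower in sacral ganglia. The median difference, sacral minus lumbar, was −0.06 log2 over the members and −0.05 over all genes tested, and 47 of 70 members had a negative difference, as had 58.0% of all genes. Large-subunit members had a median of −0.09 and small-subunit members of −0.04.

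Rpl29, a large-subunit protein that also binds heparin, lies on the plus strand of chr9:106331785-106333899 in mm9. In lumbar males (M1, M3, M5, M7, M8) its values were 3.74, 3.94, 3.44, 3.87 and 3.50 log2 RPKM, and in sacral males 3.59, 3.60, 3.27, 3.50 and 3.48. In lumbar females (F3, F7, F8, F9, F10) they were 4.29, 3.84, 4.32, 4.12 and 3.98, and in sacral females 4.15, 3.55, 3.83, 3.85 and 3.74. Every donor was lower in its sacral library, yet the groups overlapped. The difference was −0.25 ± 0.07 log2 (SE, 10 donors; limma adjusted p = 0.0493), and without 1 donor at a time it stayed past the threshold only without M8, the adjusted p reaching 0.103 without F10. Rpl29 was the only 1 of 70 members that moved the same way in all 10 donors, as did 2.85% of all genes. Its coding sequence has 90.3% of windows elsewhere, at 90 loci.

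The next members by p were Rplp1, with a difference of −0.31 ± 0.11 (SE; limma adjusted p = 0.0792) and lower in 8 of 10 sacral libraries, and Rpl36al, with −0.32 ± 0.12 (adjusted p = 0.0957), also lower in 8. Neither passed the test. At an unadjusted p under 0.05 there were 5 members of 70, against 24.1% of all genes. The other stalk proteins had differences of −0.17 ± 0.13 (Rplp0) and 0.15 ± 0.17 (Rplp2), and Rpsa had 0.07 ± 0.11. The reference genes Rpl13a and Rps18 had 0.05 ± 0.14 and 0.10 ± 0.14 (SE, limma).

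Markers of the cell types in the ganglia also differed between the levels. The difference, sacral minus lumbar, was negative for all 7 DRG neuron markers (median −0.40), and 1 passed, the neurofilament gene Nefl with −0.90 (limma adjusted p = 0.00687). It was negative for all 6 glial markers (median −0.30), and 2 passed, among them Fabp7 with −0.40. It was positive for all 6 fibroblast markers (median 0.35), of which Col1a1, Col1a2 and Pdgfra passed, and for the 3 cartilage markers tested (median 0.80), of which the cartilage collagen gene Col2a1 passed. Of 3 endothelial markers Cdh5 passed, with 0.46, while Pecam1 and Kdr had −0.11 and −0.04. All 5 skeletal muscle markers tested were negative (median −0.59), with 0 called. Of the erythroid, macrophage and proliferation markers 0 of 6, 0 of 2 and 0 of 6 passed. The summed DRG neuron level ran from 9.50 to 10.67 in lumbar males, 9.22 to 10.06 in sacral males, 9.60 to 10.95 in lumbar females and 8.33 to 10.28 log2 RPKM in sacral females. The summed fibroblast level ran from 7.57 to 8.29, 8.12 to 8.52, 7.60 to 8.78 and 8.05 to 9.21 in the same order. The part of cell composition in the differences between the levels was not tested.

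The paired difference varied widely between donors. The median of the paired differences over the 70 members was −0.32 in M1, 0.13 in M3, −0.20 in M5, −0.48 in M7 and 0.40 in M8. In females it was −0.06 in F3, −0.25 in F7, −0.46 in F8, 0.52 in F9 and 0.02 in F10. The mean of these 10 medians was −0.07 ± 0.34 (SD), and 6 of 10 were negative. In M8 and in F9, 61 of 70 members were higher in the sacral library, while in M7 only 7 were and in M1 and F8 only 8. The mt-Rnr2 value of the same pairs differed by 0.84 in M8, 1.05 in F9 and −0.70 in M5. The sign of the member median and that of the mt-Rnr2 difference were the same in 8 of 10 donors.

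**Figure D2:**
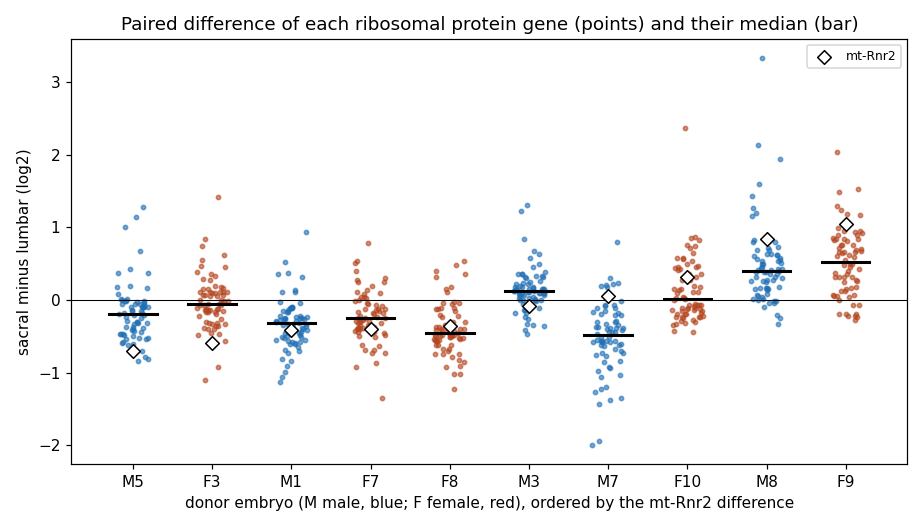
Sacral minus lumbar difference (log2) of the 70 tested ribosomal protein genes in each of 10 donors, males in blue and females in red, ordered by the difference of mt-Rnr2 (diamonds). Bars are medians over the genes, which run from −0.48 in M7 to 0.52 in F9 and lie on both sides of 0 in each sex.

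Across the 20 libraries 35 of 70 ribosomal protein genes rose with mt-Rnr2 and 2 fell, while 33 did not pass the test and 49.1% of all genes passed it. With donor as a fixed effect 0 of 70 members passed. The transcript mt-Rnr2 is the large ribosomal RNA of mitochondria, which is encoded in mitochondrial DNA and is no part of the cytoplasmic ribosome. Its value ran from 15.89 (sacral F3) to 18.56 log2 RPKM (lumbar M5). The median of the 83 members was 2.46 in the latter library. It was lowest in sacral M7 and lumbar M8, with 1.48 in both at mt-Rnr2 values of 16.91 and 16.22, and highest in lumbar F8, with 2.63 at 17.52. The 4 groups overlapped in mt-Rnr2.

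A slope on mt-Rnr2 was fitted to each gene with the group means in the model (limma, adjusted p at most 0.05). Of all 14528 genes 15.3% rose and 33.8% fell, and 55.6% had an unadjusted p under 0.05. The median slope was 0.24 log2 per log2 of mt-Rnr2 for the members and −0.10 for all genes, and 63 of 70 members had a positive slope, as had 38.4% of all genes. Large-subunit members gave 18 rising of 42 with a median slope of 0.20, and small-subunit members 17 of 28 with 0.34. Of the 55 -ps copies tested, 22 rose and 0 fell, with a median of 0.22. Spearman's rho between the slope and the share of 50-base coding windows found elsewhere was only 0.20 over the 70 members. The median slopes of the classes by that share were not in order. Of the 6 tested members with at most 25% of windows elsewhere, 1 rose, with a median slope of −0.001. With over 25% and up to 75% it was 8 of 15 (0.41), and with over 75% but not all 14 of 28 (0.22). With all windows elsewhere 12 of 21 rose (0.43). The part of sequence copies in the slopes was not tested.

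**Figure D3:**
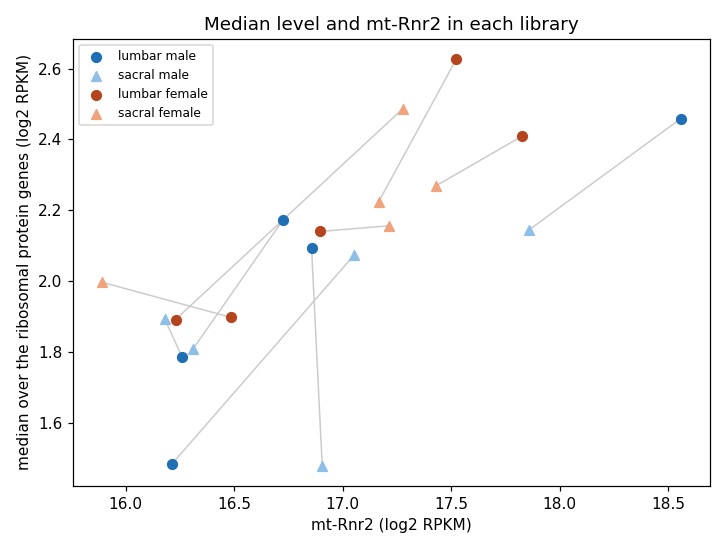
Median log2 RPKM over the 83 ribosomal protein genes with reads against mt-Rnr2 (log2 RPKM) in each of 20 libraries, circles lumbar and triangles sacral, with a line joining the libraries of a donor. Libraries with mt-Rnr2 above 17.4 have medians between 2.14 and 2.63, and the lowest medians are 1.48.

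The steepest slopes belonged to Rpl9, Rps12, Rps27a, Rps27l and Rps23. Rps27l gave the smallest p, and its values in lumbar males (in the donor order above) were 2.75, 1.99, 3.97, 2.30 and 1.79 log2 RPKM and in sacral males 1.62, 1.81, 3.19, 1.44 and 2.39. In lumbar females they were 2.51, 3.75, 3.81, 2.21 and 2.69 and in sacral females 2.38, 3.11, 2.99, 3.15 and 2.83. M5 was highest in both male groups and F7 and F8 were highest in lumbar females, and the groups overlapped. Its slope was 0.85 ± 0.10 (SE, 20 libraries; limma adjusted p = 6.08e-06).

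Rpl9 had a slope of 1.17 ± 0.27 (limma adjusted p = 0.00169) and Rps12, a small-subunit protein, of 1.17 ± 0.24 (adjusted p = 0.000727). Rps27a had 0.92 ± 0.15 (adjusted p = 0.000155), and Rps23, which sits at the decoding centre, had 0.70 ± 0.15 (adjusted p = 0.00116). The read counts behind Rps12 and Rps23 were small, from 7 to 78 and from 10 to 91 per library. Rpl22l1 (0.70), Rpl10 (0.68), Rps6 (0.66), Rpl39 (0.50), Rpl13a (0.50), Rplp2 (0.42), Rps18 (0.41), Rpl3 (0.38) and Rpsa (0.32) also rose with mt-Rnr2.

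Not all members did so. Rpl24 had a slope of −0.25 ± 0.07 (limma adjusted p = 0.00508) and Rpl29 of −0.16 ± 0.06 (adjusted p = 0.0344). The exons counted for Rpl24 span 6029 bases against 677 in its mRNA and include a transcript with 3153 coding bases, so its value is uncertain. For Rpl29 the slope turned to 0.04 (adjusted p = 0.904) with donor as a fixed effect, and it lost the threshold without M3, M5, F3 or F7 in turn, the adjusted p then rising to at most 0.216. Rpl4, the highest member, had a slope of −0.08 ± 0.06 (adjusted p = 0.268), Rpl5 of 0.11 ± 0.09 (0.312) and Rpl22 of 0.15 ± 0.09 (0.185). Rplp0 and Rplp1, with 0.24 and 0.19, did not pass the test.

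**Figure D4:**
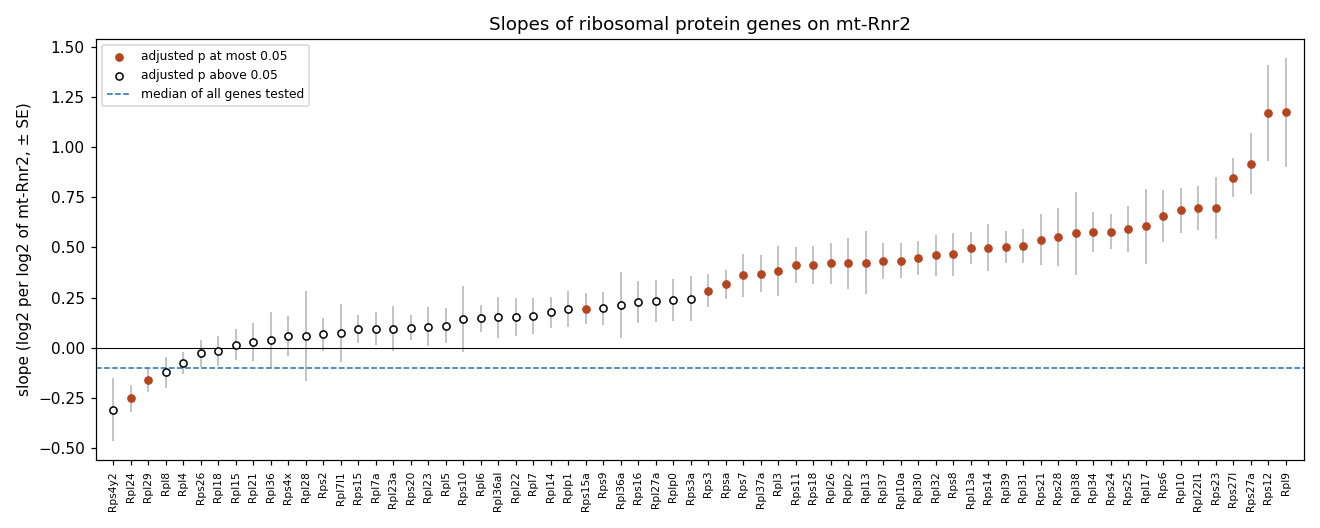
Slope of 68 tested ribosomal protein genes on mt-Rnr2 (log2 per log2, ± SE), ordered by size, with filled points for adjusted p at most 0.05. The 35 rising members reach 1.17, the 2 falling ones are Rpl24 and Rpl29, and the dashed line marks the median of all genes at −0.10.

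Other measures moved along with mt-Rnr2. All 7 DRG neuron markers fell with it, with a median slope of −0.60, while 2 of 6 proliferation markers, 2 of 3 cartilage markers and 1 of 6 erythroid markers rose. Of the glial markers 1 rose and 2 fell. Gene length did so as well: among protein-coding genes that are no members, 25.8% of the 644 with at most 1000 exon bases rose, with a median slope of 0.11, against 9.35% of the 4107 with over 2000 and up to 4000 bases, with −0.16. The 25 members of at most 1000 bases had a median of 0.37 with 14 rising, and the 17 members of over 2000 and up to 4000 bases a median of 0.23 with 8 rising. The part that cell composition and gene length play in the slopes was not tested.

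Inside the donor pairs no member passed. With donor as a fixed effect, which uses only the contrast inside each pair, 0 of 70 members passed and 80 genes did in all, although the members' median slope was 0.42. In the 10 lumbar libraries alone 34 members passed, and in the 10 sacral libraries alone 4, with medians of 0.32 and 0.22. Without lumbar M5, the library with the highest mt-Rnr2, 35 passed. The shares of all genes that passed in these library subsets are not given here. The subset counts can therefore not be set against a background.

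Few ribosomal protein genes passed the test between the sexes, and 1 difference was large. Rpl15, a protein of the large subunit, was lower in females at both levels. Its values in lumbar males were 4.72, 4.59, 4.65, 4.89 and 4.15 log2 RPKM, and in sacral males 4.50, 4.62, 4.56, 3.97 and 4.30. In lumbar females they were 2.71, 2.79, 2.62, 2.70 and 2.59, and in sacral females 2.60, 2.35, 2.22, 2.50 and 2.53. No female library came within 1 log2 unit of a male library.

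The difference, female minus male, was −1.92 ± 0.15 in lumbar ganglia (SE, 5 against 5 libraries; limma adjusted p = 7.49e-07) and −1.95 ± 0.15 in sacral ganglia (adjusted p = 5.67e-07). Males were thus 3.78-fold higher in lumbar and 3.86-fold higher in sacral ganglia. The reads behind these values were 988 to 2038 per male lumbar library and 403 to 611 per female lumbar library. The call held in all 10 fits that left out 1 donor, at both levels.

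The neighbouring gene Nkiras1 and the copy Rpl15-ps3 reached the filter, and neither was called. Nkiras1, an inhibitor of NF-kappaB signalling on the opposite strand at chr14:19103650-19116456, shares 105 of the 2397 exon bases of Rpl15 (4.38%). Its difference was −0.10 ± 0.15 in lumbar (limma adjusted p = 0.914) and −0.32 ± 0.15 in sacral ganglia (adjusted p = 0.314). The copy Rpl15-ps3 had 0.14 ± 0.18 and −0.06 ± 0.18. The neighbour Nr1d2 and the copies Rpl15-ps1 and Rpl15-ps2 had means under 1 RPKM in every group and were not tested. The coding windows of Rpl15 matched 23 other loci, 0 of them on the X or Y chromosome as assembled in mm9. A copy in sequence that mm9 lacks could not be found by this search. The reads at the matched loci were not examined. All coding windows of Rpl15 occur elsewhere, so the reads counted for it are those that could be placed uniquely, and which of its bases they cover was not tested. The labels do not give litter or preparation, which therefore cannot be told apart from sex, for Rpl15 or for any sex difference below. The running numbers that end the sample titles form separate blocks for males and females (that of lumbar M3 has an extra digit). What these numbers stand for is not given.

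**Figure D5:**
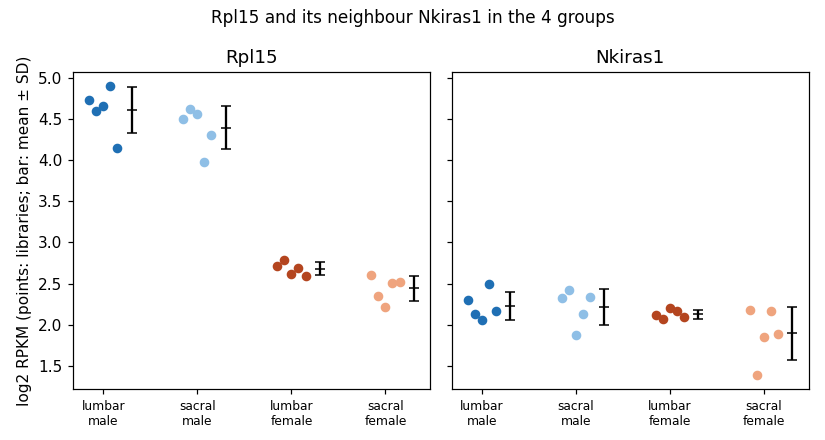
Log2 RPKM of Rpl15 and its neighbour Nkiras1 in the 4 groups of 5 libraries (points), with mean ± SD beside them. For Rpl15 the male libraries lie between 3.97 and 4.89 and the female ones between 2.22 and 2.79, while Nkiras1 overlaps between the sexes.

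In all, 1 of 70 members passed in lumbar and 2 of 70 in sacral ganglia, while 0.33% and 1.01% of all genes did. In lumbar ganglia 0.241% of all genes were called higher in males, as was Rpl15, and 0.0895% higher in females, with 0 members. In sacral ganglia 0.723% were higher in males, with Rpl15 as the 1 member, and 0.289% higher in females, with 1 member. Without donor M5, 6 members passed in sacral ganglia, and the share of all genes in that fit is not given here. Of 70 members, 3 did not overlap between the sexes in lumbar ganglia, Rpl15 among them, and 11 in sacral ganglia, against 2.19% and 3.96% of all genes. At an unadjusted p under 0.05 there were 12 and 28 members, against 8.28% and 15.5% of all genes. The median difference of the members, female minus male, was 0.30 in lumbar and 0.38 in sacral ganglia, and it was 0.02 and −0.03 over all genes. Called or not, 64 of 70 members were higher in females in lumbar and 62 of 70 in sacral ganglia, Rpl15 not among them. Of all 14529 genes 7689 and 6696 were higher in females.

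Markers of several cell types differed between the sexes beside the members, most of them short of the test. For the 6 erythroid markers tested the difference, female minus male, was positive in all at both levels, with medians of 0.56 in lumbar and 0.59 in sacral ganglia, and 1 passed (Slc4a1, sacral). Their summed level ran from 6.50 to 7.06 in lumbar males, 6.56 to 7.08 in sacral males, 6.76 to 8.42 in lumbar females and 6.81 to 8.24 log2 RPKM in sacral females. The 3 cartilage markers tested were also positive in all, with medians of 0.98 and 0.86, and 0 passed. Skeletal muscle markers had positive differences in 5 of 5 in lumbar ganglia (median 1.14) and negative ones in 4 of 5 in sacral ganglia (median −0.53), with 0 called. Glial markers had medians of −0.22 and −0.32, and Cdh19, an adhesion protein of Schwann cell precursors, was lower in sacral females (−0.87; limma adjusted p = 0.0477). The DRG neuron markers had medians of −0.02 and −0.26, with 0 called. The part of these cell types in the sex differences was not tested. The values of mt-Rnr2 averaged 16.92 ± 0.96 and 16.86 ± 0.67 in lumbar and sacral males and 16.99 ± 0.68 and 17.00 ± 0.63 in females (SD, n = 5).

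Whether the lumbar to sacral difference itself depended on sex was tested as an interaction. No member passed (0 of 70), nor did any of the 14529 genes in limma, and at an unadjusted p under 0.05 there were 0 members and 3.23% of all genes. The smallest p belonged to Rpl27a, a large-subunit protein, with 0.49 ± 0.25 (SE; limma adjusted p = 0.995). Its means were 2.89 and 2.48 in lumbar and sacral males and 2.91 and 2.99 in females.

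Other genes of translation were set beside the members. Between the levels, 0 of 11 elongation and poly(A)-binding genes, 0 of 28 initiation factors and 0 of the 2 tested genes made or bound with the small subunit (Fau and Gnb2l1) passed. Of 23 ribosome biogenesis genes 1 passed, Nhp2, a protein of the RNA-modifying particles, which was lower in sacral ganglia by −0.31 (adjusted p = 0.0435, limma). Of 73 mitochondrial ribosomal protein genes 9 were lower in sacral ganglia and 0 higher, with a median of −0.21, and of 35 proteasome genes 8 were lower and 0 higher, with a median of −0.28. Of all genes 4.03% were lower and 2.7% higher, with a median of −0.05. The neuronal, glial, fibroblast and cartilage markers that differ between the levels are given above, and their part in these counts was not tested.

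On mt-Rnr2 these lists moved in various ways. Of the elongation list 4 of 11 rose and 4 fell. Naca, a chaperone of nascent chains, had a slope of 0.71 and Tpt1 of 0.36. Eef2, the translocation factor, had −0.35 and Eef1a2 had −0.69. Initiation factors gave 2 rising (Eif4a2 and Eif3e) and 18 falling of 28, with a median of −0.24. Ribosome biogenesis genes gave 2 rising and 10 falling of 23, with −0.14. Mitochondrial ribosomal protein genes gave 12 rising and 6 falling of 73, with −0.01, and proteasome genes 0 rising and 16 falling of 35, with −0.19. Whether the members' slopes differ from those of these lists was not tested.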

How the data were processed

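RNA was sequenced from 20 libraries of whole embryonic DRG. The authors amplified total RNA into cDNA, aligned reads to mm9 with Subread, kept uniquely aligned reads, counted them with featureCounts and applied TMM scaling and voom (limma 3.26.9, edgeR 3.12.1 per the labels). The deposited values are log2 RPKM, with 1 common median per library. Whether counting used strand is not given in the sources used here. Reads were recovered from the values and the exon lengths of GENCODE M1 (98.3% of values within 0.05 of a whole read), and a blank was set to 0.5 reads. These depths carry counting error only. No p-value of this kind covers more than the spread between libraries of 10 embryos.

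The 84 members and all lists were chosen with earlier results of these data known. Differences were tested with limma 3.58.1 in R 4.3.3 (statmod 1.5.0), fitting 4 group means to the log2 RPKM of 20 libraries, donor as a block, eBayes with a trend, and Benjamini-Hochberg adjustment over 14529 genes with a mean of at least 1 RPKM in a group, two-sided at 0.05. The mt-Rnr2 slope added its log2 RPKM as a covariate. On simulated data with 200 of 14529 genes changed by 1 log2 unit, the level test recovered 79.5% with 17 false calls. With 200 genes given a slope of 1, the slope test recovered 86% with 6 false calls. The simulated noise was independent between genes, with no factor shared by the genes of a library. In the data 49.1% of all genes passed the slope test. The simulated false calls therefore do not measure the error of the tests on these data. The members' level differences had a median size of only 0.12 log2. Recovery of differences or slopes smaller than 1 was not tested. The 2 libraries of a donor come from the same embryo per the labels, and the correlation of their deviations from the group means ran from −0.17 to 0.68. Sequence copies were exact matches of 50-base or 100-base coding windows on either strand of mm9, counted as 1 locus within 10000 bases. Members named are Rplp0, Rplp1, Rplp2, Rpsa, 7 paralogs with their parents, 7 genes of known roles, those called with the largest effects, the 5 most and 5 least variable, and for the interaction the smallest p. Rpl32, Rps15, Rpl8, Rps13, Rpl35a and Rps24 were named after their values were seen. Some members are not reported by name here, and they stay in all counts and fits. Alternatives were the donor block, the filter, the pseudocount, the scaling, weights, single donors, the covariate and library subsets.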

Additional observations from a re-analysis of the deposited data

Results flagged for a closer look

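In 128 groups of 5 libraries, 7 values stood far from the other 4 of their group, by a rule that chance meets in about 1 group of 20. At that rate about as many would be flagged by chance alone. The members' share of reads was 0.171% in lumbar F8 against at most 0.134% in the other lumbar females. Rpl10 was 1.95 log2 RPKM in lumbar M5 against at most 0.71, Rpl3 was 2.05 in sacral M5 against at most 1.49, and Rpl24 was 2.13 in lumbar M5 against at least 2.55. Rpl24 was also low in sacral F7, with 1.63 against at least 2.14, and Rps27a was low in sacral F3, with 0.35 against at least 1.52. Rpl18 was 1.71 in sacral F9 against at most 1.30. M5 held the highest mt-Rnr2 value in each male group and F3 the lowest of the sacral females.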

How the results depend on the processing

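The 1 member called between levels became 0 without the replicate block and 0 without a filter, 2 with a filter of 4 RPKM and 4 with sample weights (3 of them higher in sacral ganglia), and lay between 0 and 2 without 1 donor, while the median stayed between −0.12 and −0.02 in those fits. The 1 member called between the sexes in lumbar ganglia became 2 with sample weights. The 2 called in sacral ganglia became 1 without a filter and 7 with weights, and lay between 1 and 6 without 1 donor. The 37 members with a slope on mt-Rnr2 became 23 with the stricter filter, 0 with donor as a fixed replicate block and 4 in sacral libraries alone, and lay between 31 and 45 without 1 donor. The median slope was 0.38 without a filter, 0.42 with donor fixed and 0.34 without the library highest in mt-Rnr2, and lay between 0.21 and 0.35 without 1 donor. Centring on protein-coding genes gave 48 rising and 1 falling. Most of these member counts stand without the share of all genes in the same fit, so they cannot be set against that background. Without the replicate block 154 genes in place of 978 differed between levels and 38 members in place of 37 had a slope. The slope of Rpl29 turned to 0.0404 with donor as a fixed replicate block. Over single members, 1158 of 1233 alternative values kept their side of the threshold, 57 lost it and 17 gained it. The cause of these changes was not tested, except that filters change the genes tested. Low reads limit Rps27, Rps12 and Rps23, with 107, 600 and 578 reads over all libraries, but not these alone. Rpl28 and Rpl36, which were also tested, had fewer reads than Rps12 and Rps23, with 479 and 484.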
